A study of Mus musculus with 3 samples.

Results

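The genes Sntg1, Arhgap20, Sult1e1, G530011O06Rik and Nup210l, are described here in mouse dorsal skin after chronic ultraviolet exposure and topical JAK inhibition. They are 5 of the 32285 genes in the count matrices, and they were selected on measured values, since their UMI levels in fibroblasts were higher in irradiated than in control skin and lower in ruxolitinib-treated than in irradiated skin. Their fibroblast levels in those contrasts are therefore a description of the selection. Fibroblast states and single cells divide those same UMIs, so differences between libraries within them follow in part from the selection. Levels of the members in other cell classes were not used to select them, but RNA released from fibroblasts can add UMIs to those cells. Each condition is 1 library from wild type C57BL/6J mice, labelled as 8 weeks of age, so no test between conditions can be made and every interval below covers counting error only.

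CON was unirradiated skin, given vehicle according to the study's description of its groups. UV skin was irradiated on alternate days over 12 weeks with a mixture of UVA at 0.60 mW/cm2 (315 to 400 nm) and UVB at 3.5 mW/cm2 (290 to 315 nm), with vehicle according to the same description. Rux skin received the same irradiation followed each time by 1.5% ruxolitinib ointment, an inhibitor of the JAK1 and JAK2 kinases. Full-thickness dorsal skin was taken a day after the last exposure, and the number of mice behind a library is not given in the sources used here. The matrices held between 131570327 and 165337289 unique molecular identifiers (UMIs, tags that mark single RNA molecules) in 11287 to 13170 cells, of which 10777 cells of CON, 10231 of UV and 9299 of Rux were retained. The libraries shared 28 to 50 cell barcodes in pairs, at most 0.403% of the smaller library. The mice were labelled female, but each library held between 6711 and 10459 UMIs of the Y-linked gene Eif2s3y and 13 or 14 UMIs of Xist, so the libraries go against that label.

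Several of the 5 genes have known roles. Sntg1 encodes gamma-1-syntrophin, an adaptor of the dystrophin complex, which joins the cytoskeleton to the membrane and the matrix around a cell. Arhgap20 encodes a GTPase-activating protein that switches off RhoA and is itself regulated by Rap1. Sult1e1 encodes oestrogen sulfotransferase, which inactivates oestrogens by adding sulfate to them. Nup210l encodes a relative of the nuclear pore protein Nup210 and is best known from the testis. G530011O06Rik is a noncoding RNA whose function is not known. Fibroblasts make the collagen matrix of the dermis, and JAK kinases carry signals from cytokine receptors to STAT transcription factors.

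In the GENCODE M21 annotation of GRCm38, Sntg1 (ENSMUSG00000025909) spans chr1:8361475-9299878 on the minus strand, and 1.16% of its 938404 bases are exonic. Arhgap20 (ENSMUSG00000053199) lies at chr9:51765337-51853856 on the plus strand, Sult1e1 (ENSMUSG00000029272) at chr5:87575969-87591594 on the minus strand, and Nup210l (ENSMUSG00000027939) at chr3:90104132-90212048 on the plus strand. G530011O06Rik (ENSMUSG00000072844) lies at chrX:169975043-169978917 on the minus strand, inside the span of Mid1 on the opposite strand. RefSeq lists a second copy of its promoter on chromosome Y, identical to the X copy at 259 of 296 aligned bases with an unbroken identical run of 168 bases. The transcripts were not compared, so whether reads of the X and Y copies can be separated was not tested. Its counts are uncertain to that extent.

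Promoter sequences were matched for 3 of the 5 members (RefSeq, GRCm38.p6), and the bases before the annotated gene start are shown because these members were selected for 1 pattern of levels and their promoters differ in CpG content. Capitals mark CpG dinucleotides. The Arhgap20 stretch is chr9:51765101-51765336 on the plus strand, the Sult1e1 stretch is chr5:87591612-87591861 on the minus strand and the G530011O06Rik stretch is chrX:169978918-169979167 on the minus strand. In the G530011O06Rik stretch, the bases from position 169979047 to 169979167 lie inside the annotated gene Gm15726 on the same strand.
Arhgap20: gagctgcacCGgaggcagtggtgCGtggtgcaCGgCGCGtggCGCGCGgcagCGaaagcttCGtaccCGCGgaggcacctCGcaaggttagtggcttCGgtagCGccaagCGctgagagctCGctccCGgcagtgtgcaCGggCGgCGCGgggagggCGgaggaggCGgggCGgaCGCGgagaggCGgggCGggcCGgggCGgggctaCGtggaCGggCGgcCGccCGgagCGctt
Sult1e1: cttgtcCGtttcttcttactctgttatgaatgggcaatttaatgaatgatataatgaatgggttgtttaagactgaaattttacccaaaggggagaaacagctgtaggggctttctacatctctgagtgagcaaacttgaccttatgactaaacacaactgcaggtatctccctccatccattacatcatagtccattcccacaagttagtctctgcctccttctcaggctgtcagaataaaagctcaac
G530011O06Rik: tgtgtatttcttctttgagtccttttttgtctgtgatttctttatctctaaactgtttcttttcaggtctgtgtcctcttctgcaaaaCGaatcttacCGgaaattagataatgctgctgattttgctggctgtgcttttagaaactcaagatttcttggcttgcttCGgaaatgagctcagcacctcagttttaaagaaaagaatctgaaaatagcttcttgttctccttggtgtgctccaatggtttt
Arhgap20 carried 37 CpG in the 250 bases before its RefSeq start, more than 97.8% of the 32851 promoters in the table had, where the median was 6. Sult1e1 carried 1 and G530011O06Rik 3. Searched on both strands, none of the printed stretches held the STAT letters TTCNNNGAA, the AP-1 letters TGANTCA or the antioxidant response letters TGACNNNGC, which occurred in 7.02%, 6.75% and 10.2% of all promoters over 250 bases. The absence of a match says only that these letters are not in these windows.

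Cells were grouped by marker genes into classes named after the lineage they resemble, and levels are given as CPM, the UMIs of a gene per 1000000 UMIs of those cells. FB-like cells, the fibroblast class, carried a summed 34167 CPM of the 6 fibroblast markers Col1a1, Col1a2, Col3a1, Dcn, Lum and Pdgfra in CON, 25951 in UV and 26596 in Rux, against 245 to 2684 CPM in the 9 other classes with at least 100 cells in every library. All 6 markers were lower in UV than in CON. FB-like cells numbered 3282 in CON, 4900 in UV and 4529 in Rux, with median depths of 6038, 7270 and 9680 UMIs per cell. Summed immediate-early genes such as Fos and Egr1 were at 19289 CPM in CON FB-like cells, 9452 in UV and 10351 in Rux, and the part of this difference in the members' levels was not tested beyond the comparison without the state that it marks, given below.

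In FB-like cells the syntrophin gene Sntg1 stood at 50.6 CPM in CON (95% interval 47.7 to 53.7, 1098 UMIs), 391 CPM in UV (384 to 397, 14430 UMIs) and 129 CPM in Rux (126 to 132, 6322 UMIs). UV was above both other libraries, and Rux lay between UV and CON. The log2 ratio was 2.95 (2.86 to 3.04) for UV over CON and -1.60 (-1.65 to -1.56) for Rux over UV, and Rux stayed above CON by 1.34 (1.25 to 1.44).

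Arhgap20, the RhoA switch, had the same order of libraries at 46.3 CPM in CON (43.4 to 49.2), 287 in UV (282 to 293) and 88.9 in Rux (86.3 to 91.5). Its log2 ratios were 2.63 (2.54 to 2.73) for UV over CON and -1.69 (-1.74 to -1.64) for Rux over UV, with Rux above CON by 0.94 (0.84 to 1.04).

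Sult1e1, the oestrogen sulfotransferase, was at 38.5 CPM in CON (35.9 to 41.2), 164 in UV (160 to 168) and 42.6 in Rux (40.8 to 44.5). UV over CON was 2.09 (1.99 to 2.20) on the log2 scale and Rux over UV -1.95 (-2.02 to -1.87). Rux and CON differed by 0.15 (0.03 to 0.26), the smallest distance but Nup210l's.

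The noncoding RNA G530011O06Rik was at 26.2 CPM in CON (24.1 to 28.5), 134 in UV (130 to 137) and 45.1 in Rux (43.2 to 47.0). Its log2 ratios were 2.35 (2.22 to 2.47) and -1.57 (-1.64 to -1.49), and Rux was above CON by 0.78 (0.65 to 0.92).

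Nup210l, the pore protein relative, had the smallest ratios of the members. It was at 23.8 CPM in CON (21.8 to 26.0), 59.2 in UV (56.7 to 61.7) and 24.9 in Rux (23.6 to 26.4), with log2 ratios of 1.31 (1.17 to 1.45) for UV over CON and -1.25 (-1.35 to -1.15) for Rux over UV. The interval of Rux over CON held 0, at 0.06 (-0.08 to 0.22).

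Among genes averaging 10 CPM or more over the compared libraries, 199 of 8235 (2.42%) were at least 2-fold higher in UV than in CON and 141 of 8044 (1.75%) at least 2-fold lower in Rux than in UV. Both held for 54 of 7937 genes (0.680%), the 5 members among them, which the selection fixes. With median-of-ratios scaling the split of genes past 2-fold in UV against CON moved from 199 higher and 176 lower to 249 higher and 133 lower, and the shift between both scalings was 0.10 on the log2 scale. All 5 members were past 2-fold in both contrasts under that scaling as well. The contrasts share the UV library, so a low or high UV count enters both. UV also enters the minimum of 10 CPM in both contrasts. A gene low in CON and Rux can therefore be counted through its UV level alone, as Kcnq5, given below, was. Ordered by the smaller of their ratios, Sult1e1 ranked 5, Arhgap20 11, Sntg1 13, G530011O06Rik 15 and Nup210l 24 of 7937.

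**Figure D1:**
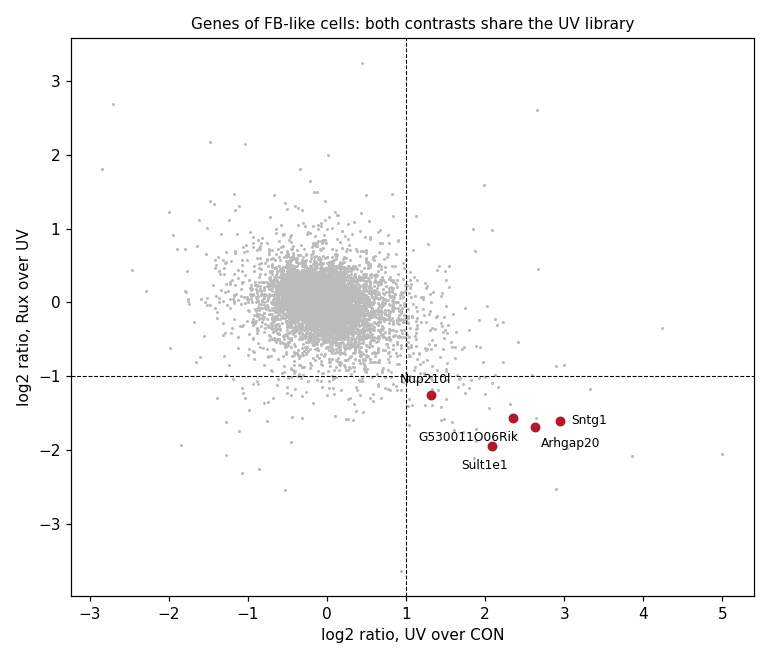
Genes of FB-like cells averaging 10 CPM or more, by log2 ratio of UV over CON (horizontal) and of Rux over UV (vertical); dashed lines mark 2-fold differences and red points the 5 members. The members lie in the lower right corner that 54 of 7937 genes share, which is how they were selected.

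The genes ranked beside the members by the same measure included Kcnq5, a potassium channel subunit, at 2.44 CPM in CON, 18.4 in UV and 3.19 in Rux. Dtna encodes alpha-dystrobrevin, a member of the dystrophin complex that binds syntrophins, and it was at 5.16 CPM in CON, 74.8 in UV and 17.7 in Rux. Hmox1, the haem oxygenase of the oxidative stress response, was at 56.0, 460 and 118 CPM. Aldh1a3, which makes retinoic acid, was at 19.4, 59.0 and 17.7 CPM, and the steroid-metabolising Akr1c18 at 6.23, 23.2 and 6.33 CPM. The other 5 of the 10 highest ranked genes outside the members were Rasgef1c, E230016M11Rik, 2810407A14Rik, Ifi202b and Gm15726.

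Most UMIs of 4 members lay in fibroblasts, and those of Nup210l did not. FB-like cells held 96.4% of all retained UMIs of Sntg1 in UV, 93.8% of Arhgap20, 94.7% of Sult1e1 and 90.7% of G530011O06Rik, but 34.4% of Nup210l. In CON these shares were 75.9%, 69.8%, 84.8%, 75.2% and 13.7%. FB-like cells ranked first of the 10 classes with at least 100 cells per library for each of the first 4 genes in each library.

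**Figure D2:**
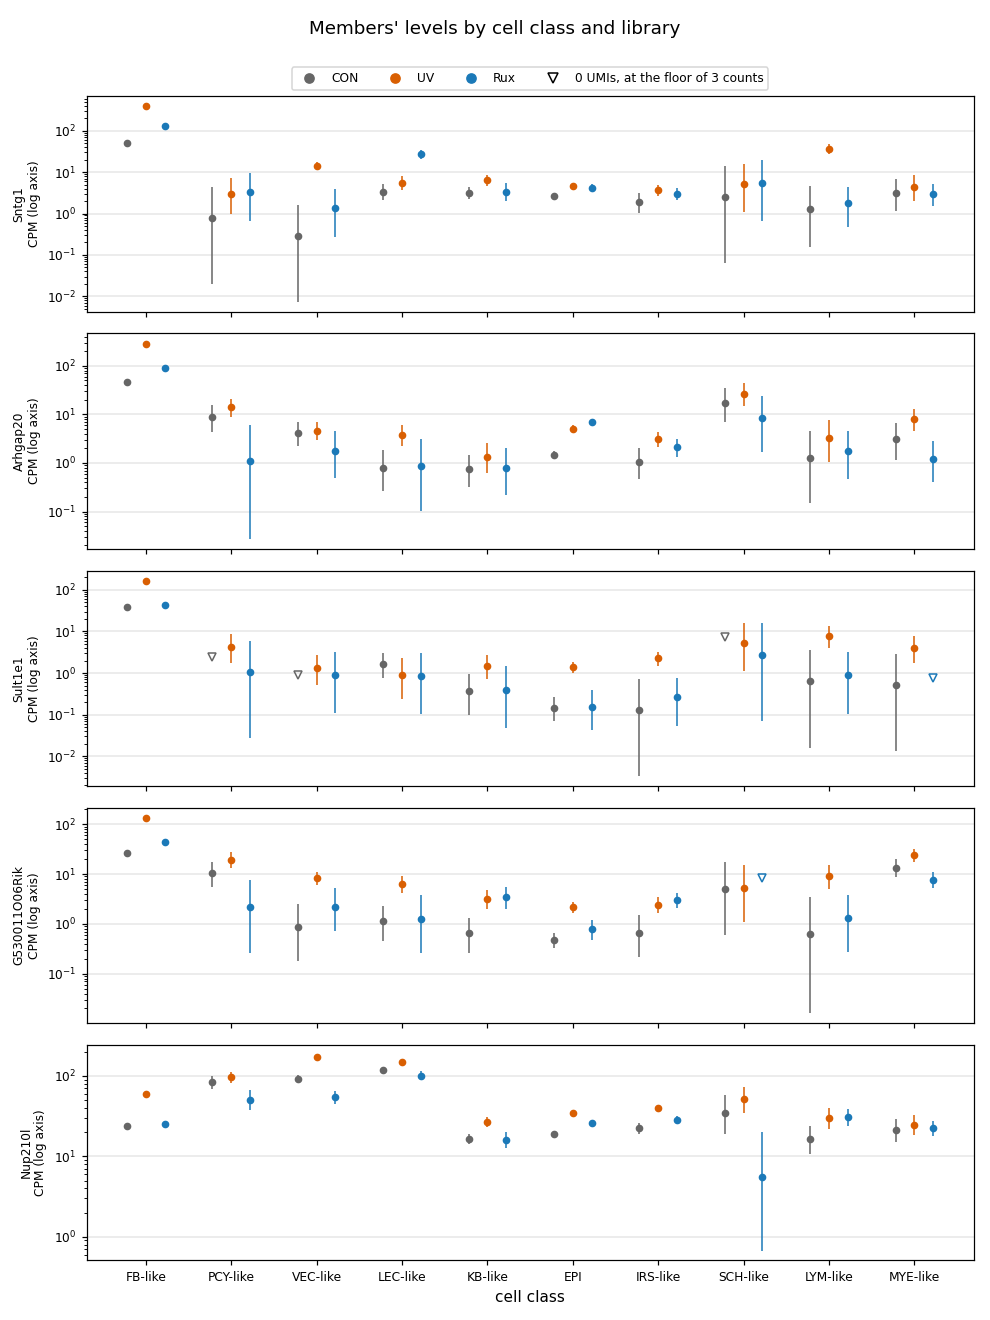
Level of each member (CPM, log axis) in 10 cell classes of CON, UV and Rux; points are summed UMIs of the class, bars exact 95% Poisson intervals, and open triangles classes with 0 UMIs. FB-like cells stand above the other classes for Sntg1, Arhgap20, Sult1e1 and G530011O06Rik in all 3 libraries, while Nup210l is highest in endothelial and pericyte classes.

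Nup210l was led by vessel cells. In lymphatic endothelium (LEC-like) it was at 119 CPM in CON (111 to 128), 147 in UV (136 to 159) and 101 in Rux (88.2 to 114). In blood vessel endothelium (VEC-like) it was at 91.6 CPM in CON (81.8 to 102), 171 in UV (160 to 183) and 54.0 in Rux (44.8 to 64.5). Pericyte-like cells followed at 83.4, 97.0 and 50.6 CPM, and their interval overlapped that of VEC-like cells in CON and in Rux. FB-like cells ranked 4 of 10 in UV, 5 in CON and 7 in Rux, with the Schwann-like class next to them in CON and UV at overlapping intervals (34.8 CPM, 19.0 to 58.3, in CON).

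The direction of Nup210l in UV over CON was the same in all 9 other classes compared, with intervals above 0 in 6. The largest ratio was 0.90 (0.72 to 1.09) in VEC-like cells, below the 1.31 of fibroblasts. Rux over UV was below 0 in 8 of the 9, with intervals below 0 in 7. In VEC-like cells it was -1.66 (-1.95 to -1.39), and Rux lay below CON there as well, with a log2 ratio of -0.76 (-1.08 to -0.46). The lowest ratio, -2.91 in Schwann-like cells, rests on 29 UMIs in UV and 2 in Rux. Of the clusters in the blood vessel class, the one led by Fabp4, Cd36 and Gpihbp1 had 142 CPM in CON, 250 in UV and 114 in Rux. The cluster led by Rgs5 and Flt1 had 157, 217 and 67.9 CPM, and the one led by Selp and Sele 58.8, 85.6 and 27.3 CPM. The mix of these clusters differed between libraries, the last holding 314, 247 and 125 cells and the first 91, 227 and 56.

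The remaining members were low in other classes, and a few cells set several of the values. Sntg1 was at 36.3 CPM in lymphocyte-like cells of UV, where 46 of its 56 UMIs lay in 1 cell. In VEC-like cells of UV 53 of 75 UMIs lay in 1 cell, and in LEC-like cells of Rux 58 of 64. Without the cell with most UMIs in each library, Sntg1 in LEC-like cells went from a Rux over UV ratio of 2.27 to 0.02 (-1.73 to 1.49) on the log2 scale. Basal keratinocyte-like cells of UV had 42 Sntg1 UMIs spread over 33 of 266 cells, at 6.31 CPM. Sntg1 in UV over CON was 1.00 (0.31 to 1.70) there, and Rux over UV was -0.87 (-1.80 to -0.05). Without the cell with most UMIs in each library these were 1.05 (0.32 to 1.81) and -0.86 (-1.86 to 0.01). In muscle progenitor-like cells Arhgap20 was at 93.4 CPM in CON, 58.6 in UV and 263 in Rux, above fibroblasts in CON and Rux, on 48, 7 and 33 UMIs in 155, 39 and 30 cells. There, 18 of the 33 UMIs of Rux lay in 1 cell.

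Free RNA released from fibroblasts adds UMIs to other cells in proportion to fibroblast markers. Sult1e1, Sntg1, Nup210l and G530011O06Rik were therefore also set against those markers. For every 10000 UMIs of the 6 fibroblast markers, Sult1e1 had 63.2 UMIs in FB-like cells of UV, 61.4 in basal keratinocyte-like cells, 53.4 in inner root sheath-like cells and 78.4 in myeloid-like cells. Sult1e1 had 15.8 in epidermal and follicle cells that could not be split further (EPI) and 132 in lymphocyte-like cells, the latter on 12 UMIs. In CON it had 11.3 in FB-like cells and 10.2 in basal keratinocyte-like cells, on 4 UMIs. Nup210l in UV was above its fibroblast ratio of 22.8 in all 9 other classes, from 247 in Schwann-like to 3450 in LEC-like cells. G530011O06Rik in UV was above its fibroblast ratio of 51.4 in 7 of the 9, with the highest value, 480, in myeloid-like cells, and below it in EPI and Schwann-like cells.

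In myeloid-like cells G530011O06Rik was at 13.4 CPM in CON (8.79 to 19.7, 26 UMIs), 24.1 in UV (17.8 to 31.9, 49 UMIs) and 7.64 in Rux (5.19 to 10.8, 31 UMIs). UV was highest there as in fibroblasts, with a UV over CON ratio of 0.83 (0.13 to 1.59) and a Rux over UV ratio of -1.65 (-2.36 to -0.98). Of the 49 UMIs of UV 10 lay in 1 cell, and without the cell with most UMIs in each library UV over CON was 0.68 with an interval that held 0 (-0.08 to 1.51). Arhgap20 in EPI cells was at 1.46 CPM in CON, 5.11 in UV and 6.99 in Rux. Rux over UV was 0.45 (0.14 to 0.76) there, opposite in sign to fibroblasts. Of the 179 Rux UMIs 80 lay in 1 cluster led by Fhod3, Slc1a3 and Nrg1. That cluster held 6 cells of CON, 43 of UV and 141 of Rux, and within it Rux over UV was -0.24 (-0.91 to 0.54). The ratio was 1.23 (0.40 to 2.07) in the EPI cluster led by Lhx2, on 28 against 25 UMIs. It was -2.44 (-3.88 to -1.26) in the EPI cluster led by Pthlh, on 8 against 21.

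Across the 9 other classes Sntg1, Arhgap20 and Nup210l were higher in UV than in CON in 9, and Sult1e1 and G530011O06Rik in 8. The intervals lay above 0 in 5, 3 and 6 classes for the first 3 and in 6 and 7 for the others. Leaving out the cell with most UMIs of the member, the intervals lay above 0 in 4 classes for Sntg1, 3 for Arhgap20, 4 for Sult1e1, 6 for G530011O06Rik and 6 for Nup210l. In Rux over UV, Arhgap20, Sult1e1 and Nup210l were lower in 8 of the 9 classes, G530011O06Rik in 7 and Sntg1 in 6, with intervals below 0 in 3, 4, 7, 6 and 3. Without that cell Sntg1 was lower in Rux than in UV in 5 classes and higher in 4, with intervals below 0 in 2. Some of these directions rest on few UMIs, such as Sntg1 in Schwann-like cells on 3 in UV and 1 in CON. Free fibroblast RNA can carry the selected pattern into these classes, and its part in the counts was not tested. Counts over all genes in these classes are not given here.

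Single fibroblasts differed in which members they carried. At an equal depth of 2000 UMIs per cell, which left out 131 to 246 shallower cells per library, Sntg1 was detected in 4.34% of FB-like cells of CON (3.65% to 5.11%), 23.2% of UV (22.0% to 24.4%) and 8.16% of Rux (7.37% to 9.01%). Arhgap20 was detected in 7.53%, 26.6% and 12.4%, Sult1e1 in 4.85%, 14.3% and 5.73%, G530011O06Rik in 3.95%, 16.3% and 5.75% and Nup210l in 3.95%, 9.60% and 4.43%. Without thinning the shares were higher, at 6.83%, 29.6% and 13.2% for Sntg1. Lymphocyte-like cells, which should lack fibroblast genes, had Sntg1 in 0 of 244 cells of CON, which allows a share of up to 1.23%, in 2.17% of 230 cells of UV and in 0.578% of 346 cells of Rux (0.0701% to 2.07%) at the same depth. For Nup210l that share was 4.92% in CON, 4.78% in UV and 4.34% in Rux, near its share of CON and Rux fibroblasts. Nup210l is not limited to fibroblasts, at 30.7 CPM in lymphocyte-like cells of Rux against 24.9 in FB-like cells. Lymphocyte-like cells therefore give no background level for Nup210l.

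At this depth none of the members was detected in 78.4% of CON fibroblasts, 40.9% of UV and 70.0% of Rux. Those with at least 2 made up 23.7% of UV, 2.87% of CON and 5.82% of Rux fibroblasts. Sntg1 and Arhgap20 went together most often: in UV, 49.2% of cells with Sntg1 also had Arhgap20, compared with 19.7% of cells without Sntg1. Sult1e1 was found in 25.5% of cells with Sntg1 and 10.9% of those without. G530011O06Rik showed the opposite pattern, in 11.9% of cells with Sntg1 and 17.7% of those without, and Nup210l was in 9.65% and 9.59%.

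Reclustering of the FB-like cells, with the members left out of the genes used, gave 13 states, which are named here by number and leading genes. In UV, most fibroblast UMIs of Sntg1, Arhgap20 and Sult1e1 lay in states 4 and 7. State 4 was led by Dtna, Limch1 and Bmp8a, and state 7 by Rasgef1c, Smpd3, Mrgprg and Sema3e. Together they held 88.9%, 73.5% and 63.3% of these UMIs in UV, with 28.7% of the cells. In CON they held 76.2%, 28.4% and 27.2%, with 7.01% of the cells. In Rux they held 86.4% for Sntg1 and 39.4% for Arhgap20, and Sult1e1 had 941 UMIs inside them and 1152 outside. State 3 (led by Gdf10) held 15.4% of the Sult1e1 UMIs of UV, beside 15.1% in state 7. Although left out of the clustering, Arhgap20 and Sntg1 were among the 10 leading genes of state 4, Sntg1 of state 7 and G530011O06Rik of state 2. Other genes with the selected pattern were not left out. Of these, Dtna and Hmox1 were among the leading genes of state 4, Rasgef1c and Aldh1a3 of state 7 and Gm15726 of state 2. The states and their shares of cells can therefore follow the selected pattern in part. These states are clusters of the same cells, so their levels are a description and not a test.

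**Figure D3:**
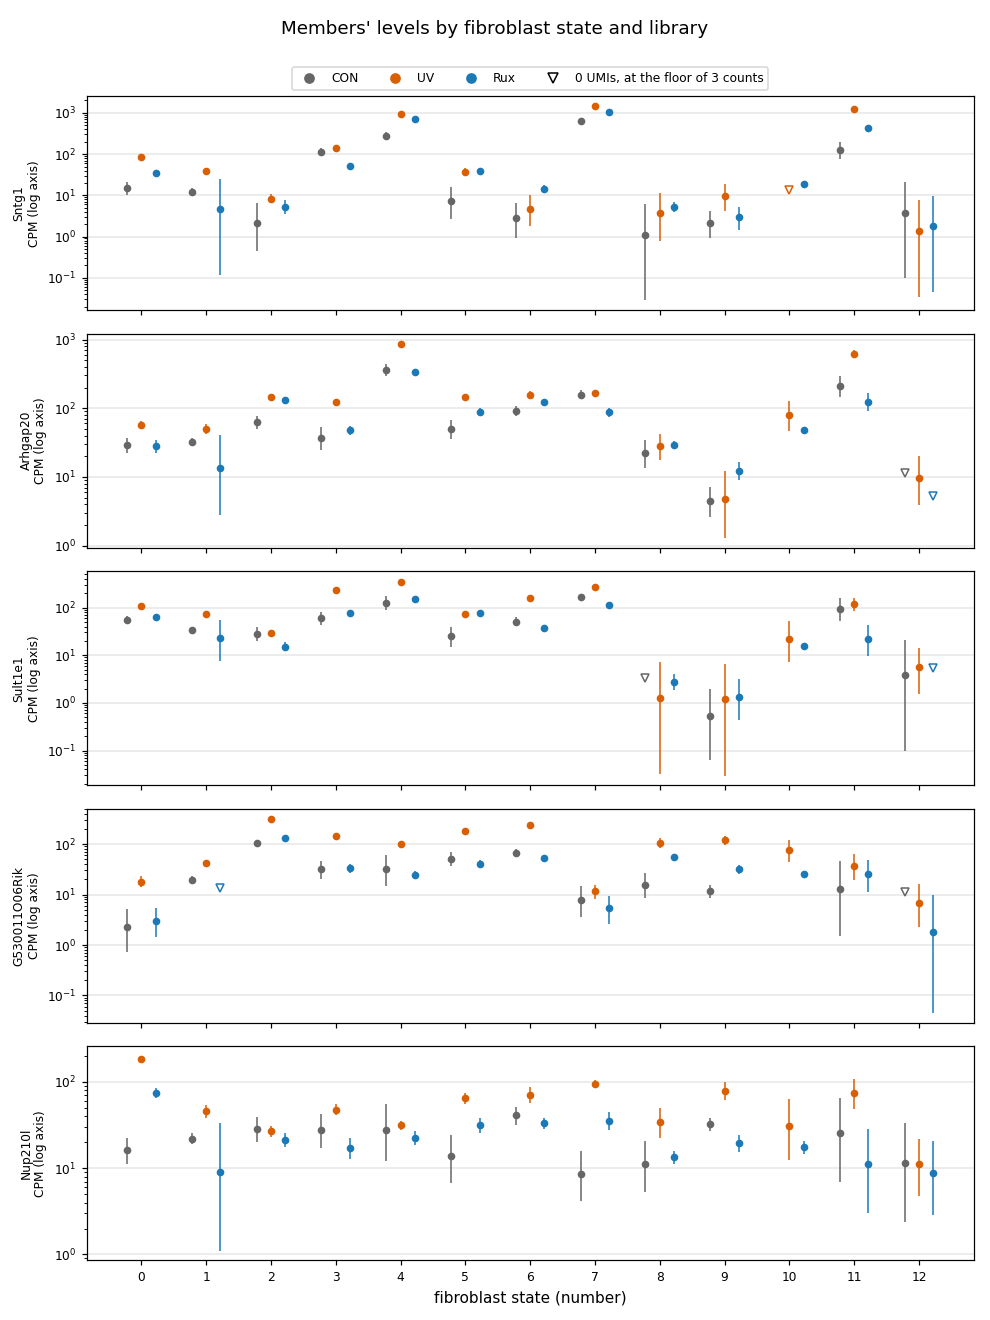
Level of each member (CPM, log axis) in the 13 fibroblast states of CON, UV and Rux; points are summed UMIs, bars exact 95% Poisson intervals, and open triangles states with 0 UMIs. In UV, Sntg1 peaks in states 7, 11 and 4, Arhgap20 in states 4 and 11, G530011O06Rik in states 2 and 6 and Nup210l in state 0.

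State 4 was 1.16% of FB-like cells in CON (0.821% to 1.59%, 38 cells), 18.3% in UV (17.2% to 19.4%, 897 cells) and 8.06% in Rux (7.28% to 8.89%, 365 cells). Sntg1 was at 278 CPM in its CON cells (220 to 346), 937 in UV (917 to 958) and 702 in Rux (678 to 727). Arhgap20 was at 359 CPM in CON (292 to 435), 859 in UV (839 to 879) and 334 in Rux (317 to 351), so Rux and CON overlapped. Sult1e1 in state 4 was at 127, 348 and 152 CPM, again with overlapping intervals for CON and Rux. Both the number of state 4 cells and the level within them were thus highest in UV, and 54.5% of the Sntg1 UMIs, 68.0% of the Arhgap20 UMIs and 48.2% of the Sult1e1 UMIs of UV fibroblasts came from this state. Hmox1 in state 4 was at 204 CPM in CON, 1123 in UV and 298 in Rux.

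State 7, a fibroblast state with Dpp4 at 661 to 847 CPM, held 5.85% of FB-like cells in CON, 10.4% in UV and 5.34% in Rux. Sntg1 was high here without irradiation, at 652 CPM in CON (606 to 700), and reached 1435 in UV (1396 to 1476) and 1073 in Rux (1029 to 1118). This state held 69.0% of the Sntg1 UMIs of CON fibroblasts. Arhgap20 was at 157 CPM in CON and 168 in UV, with a ratio whose interval held 0 (0.10, -0.14 to 0.35), and at 86.9 in Rux, below CON by a log2 ratio of -0.86 (-1.16 to -0.55). Sult1e1 was at 164, 265 and 115 CPM.

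State 11, led by Tuft1 and Gm17268, also carried Sntg1 at 127, 1235 and 424 CPM and Arhgap20 at 209, 626 and 125 CPM. Its 59, 110 and 76 cells were shallow, with a median of 2369 to 3988 UMIs, and had Dcn at 993 to 1644 CPM where the other states had at least 5682. Whether they are whole fibroblasts was not tested.

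Within state 4 of UV at equal depth, the pairing of Sntg1 and Arhgap20 seen over all fibroblasts was small. Arhgap20 was in 73.9% of its cells with Sntg1 and 66.0% of those without. In state 7 the shares were 23.0% and 26.8%. In state 4 of UV 93.8% of cells carried at least 1 member and 63.7% at least 2.

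**Figure D4:**
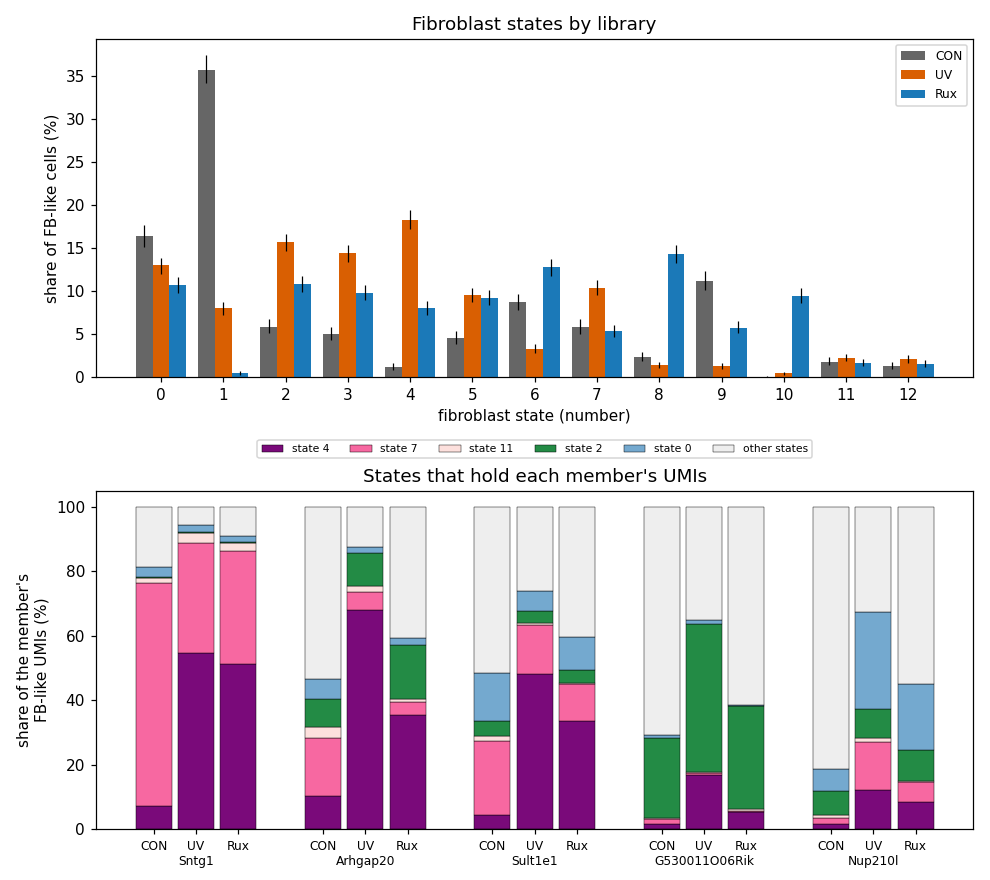
Top, share of FB-like cells in each fibroblast state by library, with exact 95% binomial intervals; bottom, share of each member's FB-like UMIs held by states 4, 7, 11, 2, 0 and all others. State 4 goes from 1.16% of cells in CON to 18.3% in UV and 8.06% in Rux, and it holds 54.5% of Sntg1 UMIs and 68.0% of Arhgap20 UMIs in UV.

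Outside states 4 and 7 all 5 members were still highest in UV, and Sntg1, Arhgap20 and Sult1e1 were at lower levels than inside these states. Sntg1 was at 12.9 CPM in CON (11.4 to 14.6), 63.7 in UV (60.6 to 66.9) and 20.3 in Rux (19.0 to 21.7). Arhgap20 was at 35.5, 112 and 62.3 CPM, and for Sult1e1 UV over CON was 1.56 (1.43 to 1.69) and Rux over CON -0.15 (-0.29 to 0.00), below 0 where it was above 0 over all FB-like cells. G530011O06Rik and Nup210l were higher outside these states than inside them in UV, at 162 against 73.0 CPM and at 63.6 against 49.9 CPM. Inside states 4 and 7 combined, Sntg1 was at 578, 1082 and 817 CPM, and Rux over UV was -0.41 (-0.45 to -0.36), against -1.65 (-1.77 to -1.53) outside them.

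G530011O06Rik had another centre. It was highest in state 2 (led by Thbs1 and Gfra1) at 103 CPM in CON (86.3 to 121), 308 in UV (296 to 321) and 130 in Rux (121 to 140), and that state went from 5.88% of FB-like cells in CON to 15.7% in UV and 10.8% in Rux. State 6 (led by Thbs4, Cilp and Col8a1) had 67.0, 239 and 53.0 CPM and came next in CON and UV. In Rux, state 8 (led by Postn and Pparg) was at 56.6 CPM (51.9 to 61.6), overlapping state 6 (47.0 to 59.5). State 8 held 23.9% of the gene's UMIs in Rux fibroblasts. The gene was low in state 7, at 7.74, 11.6 and 5.31 CPM, where Sntg1 was highest. By level alone it was higher in UV than in both other libraries in all 11 states with at least 30 cells in each library. The UV over CON interval lay above 0 in 8 of the 11 and the Rux over UV interval below 0 in 9. State 12 held 5 UMIs of the gene in UV, 0 in CON and 1 in Rux.

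Nup210l within fibroblasts was led by state 0 (Pecam1, Pde4c, Abca8a) in UV. There it was at 16.1 CPM in CON (11.3 to 22.3), 186 in UV (172 to 200) and 74.4 in Rux (65.5 to 84.1), a UV over CON ratio of 3.51 (3.04 to 4.05). State 7 had the next highest ratio, 3.40 (2.57 to 4.54), at 8.60, 94.9 and 35.7 CPM. Since Nup210l is highest in endothelium, endothelial markers were read in the same cells. The 5 blood vessel markers summed to 22.2 CPM in FB-like cells of CON, 64.2 in UV and 49.1 in Rux, with 2 of the 5 higher in UV than in CON and none at 0, and their part in the Nup210l levels was not tested. In state 0, Pecam1 was at 7.16 CPM in CON, 172 in UV and 204 in Rux, and Flt1 at 12.1, 30.5 and 21.2 CPM. Cdh5 was at 2.24 to 3.67 CPM there, Emcn at 1.13 to 2.06 and Cldn5 at 1.98 to 7.61. State 7 also had Pecam1 at 6.02, 179 and 94.6 CPM with Cdh5 at 0.860 to 3.76. State 0 fibroblasts of UV had Dcn, a fibroblast marker, at 11507 CPM. In states 2, 4 and 12 the interval of Nup210l in UV over CON held 0.

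Counted over the 11 states with at least 30 cells per library, UV was above both CON and Rux for Sntg1 in 7, Arhgap20 in 9, Sult1e1 in 8, G530011O06Rik in 11 and Nup210l in 9. The exceptions for Sntg1 were states 5, 6, 8 and 12, of which state 6 was higher in Rux than in UV by 1.45 (0.37 to 3.05) on 75 and 6 UMIs. In state 8 (led by Postn and Pparg), Sult1e1 had 0 UMIs in 77 cells of CON, 1 in 69 cells of UV and 26 in 648 cells of Rux. The counts above go by level alone. In the same order of members, UV over CON intervals lay above 0 in 7, 7, 6, 8 and 8 of the 11 states. Rux over UV intervals lay below 0 in 6, 9, 7, 9 and 9. Counts over all genes are not given here.

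The mix of states differed between libraries, so the members' levels were also computed with the states weighted as in CON. The libraries were clustered together without correction for library, so states can partly follow library. State 10, for example, held 0 cells of CON, 21 of UV and 430 of Rux. The weighting therefore cannot separate a different mix of cells from different levels within the same cells. Sntg1 then was at 50.6 CPM in CON, 131 in UV and 80.6 in Rux, with log2 ratios of 1.37 and -0.70 in place of 2.95 and -1.60. Arhgap20 was at 46.3, 83.8 and 44.7 CPM, with ratios of 0.86 and -0.91, under 2-fold in both. Sult1e1 kept 1.13 of 2.09 and -1.33 of -1.95. G530011O06Rik kept 1.87 of 2.35 in UV over CON and went to -1.99 in Rux over UV, and Nup210l went to 1.54 and -1.57, both farther from 0 than as found. State 1 was led by Socs3, Gadd45g, Zfp36 and Irf1, with Socs1 and the immediate-early genes Egr1, Fos and Junb also among its 10 leading genes. It carries much of this weighting, as 35.8% of FB-like cells in CON and 8.00% in UV. In Rux it held only 21 cells, or 0.464%, so the weighted Rux values rest on few cells. With states 1 and 11 left out and no weighting, all 5 members stayed past 2-fold in both contrasts.

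**Figure D5:**
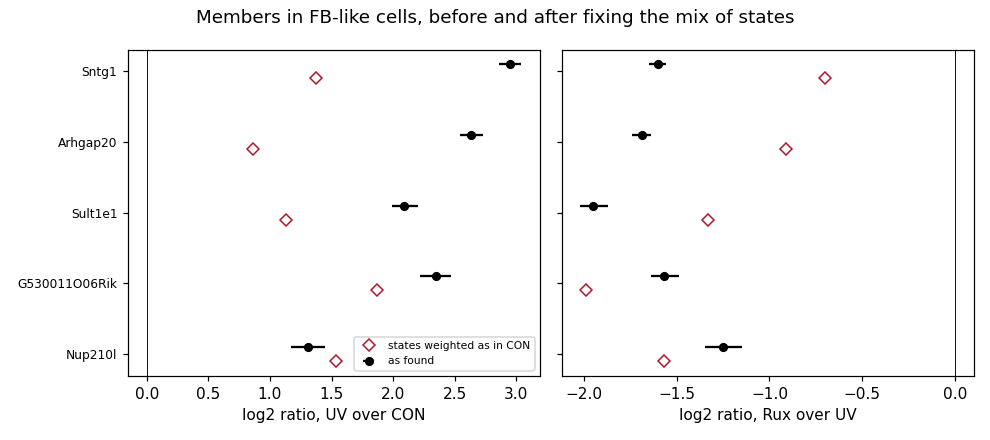
Log2 ratio of each member in FB-like cells for UV over CON (left) and Rux over UV (right), as found (black, with exact 95% intervals) and with the fibroblast states weighted as in CON (red). Weighting moves Sntg1 from 2.95 to 1.37 and Arhgap20 from 2.63 to 0.86 in UV over CON, while Nup210l goes from 1.31 to 1.54.

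Some clusters with fibroblast-type genes could not be named and stand outside the FB-like class. One led by Gdf10, Mgp and Cst3, with 564, 545 and 436 cells in CON, UV and Rux, had Sult1e1 at 65.8, 127 and 62.5 CPM and G530011O06Rik at 30.8, 71.7 and 20.3 CPM, again highest in UV. Sntg1 in the same cluster was at 22.3, 42.4 and 59.0 CPM, and the interval of Rux over UV held 0 (0.47, -0.07 to 1.03). Cells of this cluster were shallow, with a median of 0.25 times the median UMIs of their library. One led by Lrrc15, Col11a1 and Ednrb, with 114, 177 and 479 cells, had Arhgap20 at 53.0, 97.6 and 75.5 CPM and Sntg1 at 1.80 to 3.67 CPM.

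Over the 34 combinations of state and library with at least 50 cells, the members' levels as log2(CPM + 1) correlated with each other to different degrees, given here as a description because combinations share libraries and depth. Pearson's r was 0.80 between Arhgap20 and Sult1e1, 0.74 between Sntg1 and Sult1e1 and 0.66 between Sntg1 and Arhgap20. G530011O06Rik had an r of -0.14 with Sntg1, and Nup210l had r of 0.26 to 0.40 with the others. Among 8168 genes, those most like Sntg1 were Has2os, antisense to a hyaluronan synthase gene (r 0.885), the transcription cofactor Eya4 (0.859) and Car8 (0.845), followed by Gm12381 and Klf12. Those most like Arhgap20 were the RNA editing enzyme Adarb1 (0.908), Sdk1 (0.906), Kcnk5 (0.892), Gfpt2 (0.875) and Bnc2 (0.871). Sult1e1 was nearest to Cdh9 (0.848), Tshz2 (0.844), Cadps2 (0.822), the prostacyclin synthase Ptgis (0.821) and Plscr2 (0.811). Nup210l had no close partner: its highest r was 0.699 with 1700024B18Rik, then 0.684 with the chemokine receptor gene Cx3cr1, 0.677 with Lsmem1, 0.667 with Snx14 and 0.663 with Ccdc152.

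For G530011O06Rik the nearest gene by pattern was also a neighbour on the chromosome. Gm15726 (r 0.901) ends 129 bases before the start of G530011O06Rik on the same strand, and it was at 40.9 CPM in CON, 151 in UV and 45.9 in Rux. Gm15247, the next gene on that side, was at 3.00, 11.7 and 5.66 CPM. Gm21887, which follows on the opposite strand, was at 7.38, 9.39 and 3.28 CPM, a Rux over UV ratio of -1.52 (-1.80 to -1.25). Mid1, which spans the region on the opposite strand, was at 189, 250 and 210 CPM, a UV over CON ratio of 0.40 (0.35 to 0.46). Whether G530011O06Rik and Gm15726 are read from 1 transcript was not tested. The other genes most like G530011O06Rik were the protease gene Adamts1 (0.850), Gch1 (0.825), Cdv3 (0.811) and Etnk1 (0.789).

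Neighbours of the other members were mostly low. Arhgap20os, which overlaps Arhgap20 on the opposite strand, had 7 UMIs in CON, 232 in UV and 82 in Rux FB-like cells, at 0.323, 6.28 and 1.67 CPM, and Gm6980, 59620 bases beyond Arhgap20, had 10, 88 and 34. Next to Sult1e1, the sulfotransferase gene Sult1d1, 6941 bases away, had 1 UMI in CON, 142 in UV and 18 in Rux, and Sult1b1 had 0, 38 and 7. On the other side, the casein genes Csn2 and Csn1s2a were at 0 UMIs in all 3 libraries and Csn1s1 had 5 in UV alone. Around Sntg1 the nearest measured gene lay 245529 bases away, and this gene, Rrs1, was at 43.3, 54.2 and 38.8 CPM, while Adhfe1 was at 7.56, 15.4 and 12.7 CPM. Beside Nup210l, Tpm3 was at 376, 301 and 188 CPM and Rps27 at 1732, 1841 and 1819 CPM, with UV over CON at -0.32 and 0.09.

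Related genes were read from lists of the members' pathways or families, with the members left out. A list of adipocyte precursor genes, which is not a member's pathway or family, was read beside them. As for all genes, only those averaging 10 CPM or more over the compared libraries were counted. Their counts stand beside 2.42% of all genes past 2-fold upward in UV over CON and 1.75% downward in Rux over UV. Of 12 measured dystrophin complex genes 2 were at least 2-fold higher in UV than in CON, Dtna (log2 ratio 3.85) and its relative Dtnb (1.05). In Rux over UV 1 of 13 was past 2-fold, Dtna at -2.08, while Dtnb was at 0.21. Of 17 Rap1 and RhoA switches 1, Sipa1l2, was past 2-fold in UV over CON (1.09) and none in Rux over UV. Among 19 RhoGAP genes related to Arhgap20, Arhgap10 (1.06) and Arhgap18 (1.01) were past 2-fold in UV over CON, neither was past 2-fold in Rux over UV (0.08 and -0.44), and Arhgap26 was past it in Rux over UV alone (-1.05). Of the 36 sulfation and oestrogen genes in the matrices 13 reached that minimum. None of the 13 was past 2-fold in UV over CON, and Hsd17b7, an enzyme of sterol and oestrogen synthesis, was past it in Rux over UV (-1.10). Sult1d1 and Sult1b1, the neighbours of Sult1e1, fell below the minimum and were not counted. On their few UMIs, UV over CON was 5.80 and 5.50 and Rux over UV -3.36 and -2.77. Of 23 nucleoporin genes 1, Nup107 (1.73), was past 2-fold in UV over CON and none of 21 in Rux over UV. Of 11 adipocyte precursor genes Cebpd (-1.24) and Bmp4 (-1.17) were lower in UV than in CON, and the fat cell regulator Pparg (1.46) and Fabp4 (1.17) were higher in Rux than in UV. List medians in UV over CON lay between -0.25 for adipocyte precursors and 0.23 for RhoGAPs, and in Rux over UV between -0.14 for nucleoporins and 0.08 for RhoGAPs, against -0.09 and 0.01 over all genes. Among the counted genes of these lists, Dtna was the one that passed 2-fold in the members' direction in both contrasts.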

How the data were processed

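The authors deposited raw UMI counts per gene and cell for 3 droplet libraries (10x Genomics 3' v3.1), aligned to mm10 with Cell Ranger. The version is 6.1.2 in the study's methods and 7.0.0 in the matrix headers, and whether intronic reads were counted is not given in the sources used here. Counts were used as deposited. Cells under 200 genes or over 10% mitochondrial UMIs were dropped, and cells with the highest Scrublet scores (0.8% per 1000 cells, scanpy 1.11.5) were removed as doublets. Cells were clustered in Seurat 5.3.0 (2000 variable genes without the members, 30 components, resolution 1.5). Clusters were named from fixed markers, at least 3 of them detected in at least 10% of cells, and rebuilt names may differ from the study's. Fibroblasts were reclustered (20 components, resolution 0.5). Both clusterings pooled the 3 libraries without correction for library.

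UMIs were summed per class, state and library and given as CPM with exact 95% Poisson intervals, shares with exact Clopper-Pearson intervals, and ratios as log2 with 0.5 UMI added and exact conditional binomial intervals. A count of 0 allows up to 3. All of these cover counting error only. With 1 library per condition no test across samples was made; the interval code was tested on simulated data. The members, lists and alternatives were chosen with earlier results of these data known. Named besides the members were list genes past 2-fold (up to 5 a list) and some of the 3 nearest measured genes on each side. The 5 genes with the highest r for each member and the 10 genes ranked highest by the smaller of both ratios were also named. Gene positions came from GENCODE M21 (32235 of 32285 identifiers matched). Alternatives covered scaling, totals, the weight of a cell, filters on cells and genes, doublets, clustering and the mix of states.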

Additional observations from a re-analysis of the deposited data

Results flagged for a closer look

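For Sntg1 the Rux over UV ratio in LEC-like cells was 2.27 on the log2 scale, opposite in sign to the -1.60 of FB-like cells. The difference was not tested, and 58 of the 64 UMIs behind it lay in 1 cell. For Arhgap20 the Rux over UV ratio in EPI cells was 0.45, opposite to the -1.69 of FB-like cells, and 0.55 without the cell with most UMIs in each library. Classes under 100 cells in a library were not screened in this way. Among them, Arhgap20 in Rux over UV was 4.04 (2.75 to 6.13) in melanocyte-like cells, on 48 against 4 UMIs. In muscle progenitor-like cells it was 2.09 (0.97 to 3.59), on 33 against 7 UMIs. None of these Arhgap20 differences was tested. The libraries hold 1 sample per condition, so no sample could be compared with others of its group.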

How the results depend on the processing

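The 10 ratios of the members in FB-like cells kept their sign under all 9 alternatives, of which leaving out states 1 and 11 was added after seeing the data, as was leaving out the cell with most UMIs in the other classes. Sntg1 in UV over CON ranged from 1.37 to 3.04 and Arhgap20 from 0.86 to 2.73, the lowest with states weighted as in CON. Without a minimum beyond 1 UMI the count of genes at least 2-fold higher in UV than in CON was 3174, that of genes at least 2-fold lower in Rux than in UV 3807 and that of both 1531. With a minimum mean of 50 CPM these counts were 74, 41 and 19. With states weighted as in CON, 74 genes were past 2-fold in UV over CON and 14 in both contrasts. The other 25 alternative counts lay within 1.5 times of the main ones. With doublets kept, Sult1e1 in pericyte-like cells turned to -0.63 in UV over CON, from 3.50 on 7 UMIs against 0, and G530011O06Rik in basal keratinocyte-like cells to -0.13 from 2.21. The causes were not tested. Depth limits the classes other than fibroblasts, where Sult1e1 had at most 46 UMIs a class and library. No paired analysis was possible because each condition has 1 library.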
